A study of Mus musculus with 12 samples.

Results

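The genes described here make or import amino acids in adipocyte precursor cells, the fibroblast-like stem cells of fat. They are the 3 enzymes of serine synthesis (Phgdh, Psat1 and Psph), a pair of mitochondrial enzymes that pass on serine's carbon (Shmt2 and Mthfd2), asparagine synthetase (Asns), a proline-making enzyme (Pycr1) and 3 genes of amino acid transporters (Slc7a5, Slc3a2 and Slc7a1). The members were taken by symbol, from a list chosen with earlier results of these data known. All 10 were among the 14398 genes of the count table and the 14266 that passed the filter on low counts. Precursors were sorted from the fat of male C57Bl6/J mice of 6 to 8 weeks, as cells negative for CD45 and CD31 and positive for Sca1, CD34 and CD29, whether or not they carried CD24. Their poly(A) RNA was sequenced in 4 groups of 3 libraries. VWAT_HFD libraries came from perigonadal (visceral) fat after 3 days on a high-fat diet with 60% lard, labelled day 3, and VWAT_SD libraries from the same depot on standard diet, labelled day 0. SWAT_HFD and SWAT_SD libraries came from inguinal subcutaneous fat on the same diets. No group carries a mutation or transgene, and each library pools tissue from 3 mice, so single animals are not seen. The day labels differ between diets, so an effect of diet and one of the day of collection cannot be told apart.

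Cells take up amino acids through membrane carriers and make the non-essential ones from sugar and other intermediates. Serine synthesis branches from glycolysis at phosphoglycerate. Serine then feeds the folate cycle, whose one-carbon units go into nucleotides, and proline is made from glutamate and is abundant in collagen. In mammalian cells short of amino acids, the kinase GCN2 raises translation of the transcription factor ATF4, and genes of amino acid synthesis and import are well-known targets of ATF4. Proliferating cells are also known to raise serine, folate and proline synthesis.

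Libraries held 17630284 to 56094076 gene counts, and the members had from 128 to 9457 counts in single libraries. Values are CPM, read counts relative to the size of their library after TMM scaling, which are levels of a gene between libraries and not between genes of different length. Errors written after ± are standard deviations (SD, not to be read as the diet label). Precursor genes were high in every group, with Pdgfra at 776 ± 184 CPM in VWAT_HFD, 1025 ± 49.3 in VWAT_SD, 816 ± 71.7 in SWAT_HFD and 872 ± 98.0 in SWAT_SD (SD, n = 3 each), while Ptprc, which encodes CD45, averaged 0.272 to 2.54 CPM and Adipoq 0.269 to 0.341 CPM. The 7 endothelial markers summed to 186.6 to 222.4 CPM in VWAT_HFD and 193.1 to 242.5 in VWAT_SD. They summed to 244.1 to 312 CPM in SWAT_HFD and 215.5 to 315.5 in SWAT_SD. In respects other than depth, a pair of libraries stood apart. On the second principal component VWAT_HFD replicate 3 lay at 2.05, against −37.0 and −46.0 for the other VWAT_HFD libraries and 24.4 to 32.4 for VWAT_SD. SWAT_HFD replicate 2 had 45.1 CPM summed over 10 leukocyte markers, against 7.14 to 17.6 CPM in the other libraries. In these bulk samples fewer cells of a type and less RNA per cell cannot be told apart.

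Set per kilobase of exon, Slc3a2 was the most abundant member in all 4 groups, at 53.4 ± 5.06 CPM per kb in VWAT_HFD, 47.6 ± 3.08 in VWAT_SD, 45.4 ± 3.03 in SWAT_HFD and 44.8 ± 2.56 in SWAT_SD. Psat1 came second in visceral precursors, at 36.8 ± 1.89 CPM per kb in VWAT_HFD and 34.3 ± 8.54 in VWAT_SD. In subcutaneous precursors it was only eighth by level, at 6.61 ± 1.92 CPM per kb in SWAT_HFD and 3.92 ± 0.584 in SWAT_SD (SD, n = 3). All other members lay between 2.33 and 13.5 CPM per kb, so the large carrier subunit and, in visceral cells, the serine transaminase stood above the rest of the set on this per-length scale.

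**Figure D1:**
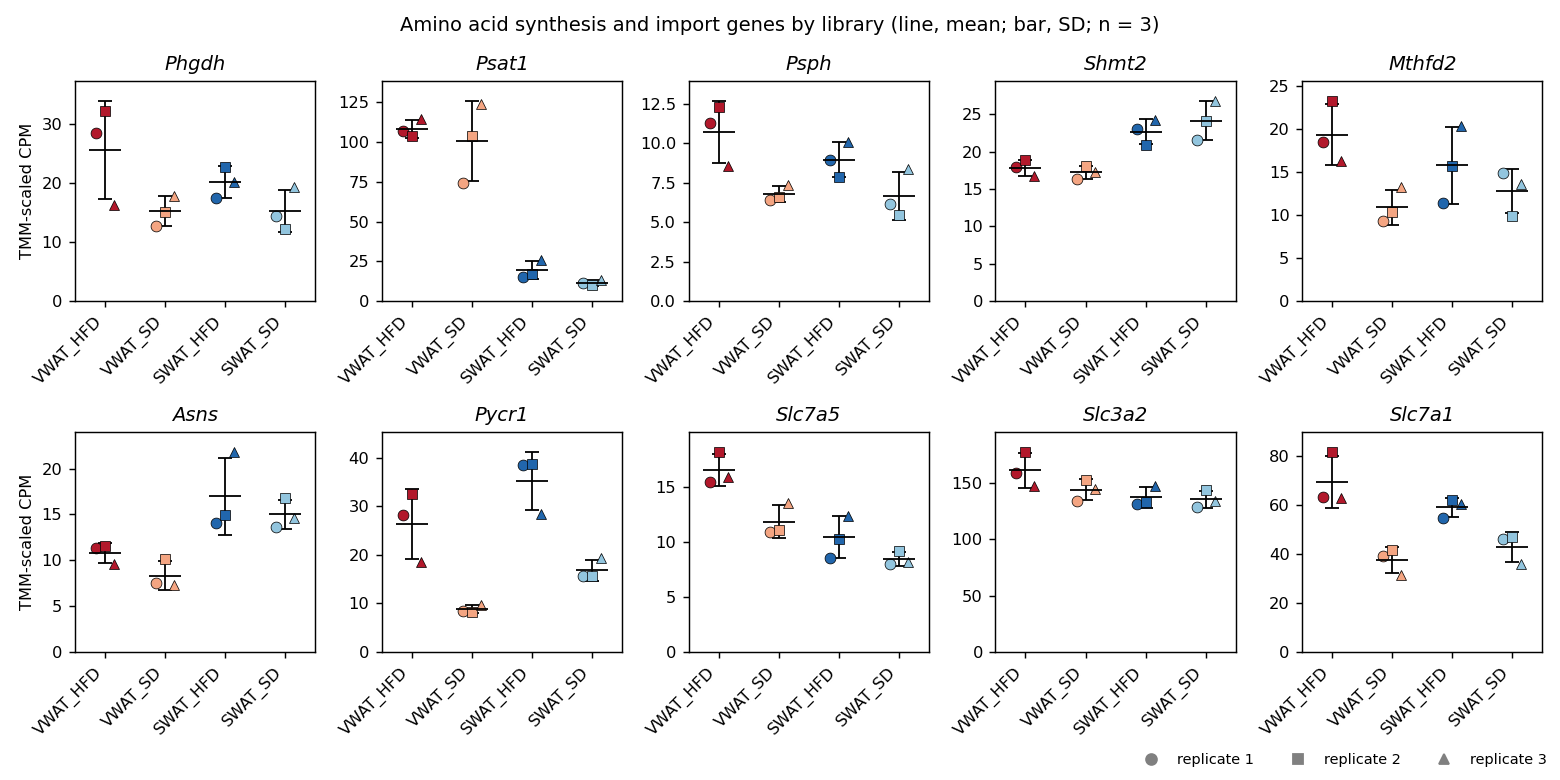
TMM-scaled CPM of each gene in each library, with the mean (line) and SD (bar) of 3 libraries per group and a separate linear axis from 0 for each gene. Pycr1 and Slc7a1 are higher in all HFD libraries than in the SD libraries of the same depot, and Psat1 is between 74.1 and 123.9 CPM in visceral libraries against 10.02 to 25.8 CPM in subcutaneous ones.

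The first comparison asked how 3 days of high-fat feeding changed these genes in visceral precursors. In VWAT_HFD against VWAT_SD, 6 of the 10 genes rose and none fell (edgeR's quasi-likelihood F test, adjusted p under 0.05 over all 14266 genes), where 8.64% of all genes tested rose and 6.98% fell, 15.6% in either direction. Pycr1 rose 3.01-fold, Slc7a1 1.85-fold, Mthfd2 1.77-fold, Phgdh 1.685-fold, Psph 1.58-fold and Slc7a5 1.39-fold. The other 4, Asns, Slc3a2, Psat1 and Shmt2, did not pass the test, with estimates of 0.38, 0.17, 0.10 and 0.05 on the log2 scale. The median log2 fold change of the set was 0.57, against −0.02 over all genes. Of all 10 members, 5 had every VWAT_HFD library above every VWAT_SD library, where 15.5% of all genes did. These 5 were the genes that rose apart from Phgdh. The count depended on single libraries: only Pycr1 and Slc7a1 passed without VWAT_HFD replicate 2, VWAT_SD replicate 1 or VWAT_SD replicate 2, making 2 of 10, and 6 of 10 passed without VWAT_HFD replicate 3. The share of all genes tested that rose in these fits moved too, to 14.9% without VWAT_HFD replicate 3 and 3.45% without VWAT_HFD replicate 2. It was 5.5% without VWAT_SD replicate 1 and 5.05% without VWAT_SD replicate 2. With library size as the only scaling 4 rose and none fell, where 5.6% of all genes rose and 12.8% fell, and the median over all genes then moved to −0.13.

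In subcutaneous precursors, SWAT_HFD against SWAT_SD, Pycr1 alone passed, 2.10-fold higher, where 0.967% of all genes rose and 0.147% fell, 1.11% in either direction. The estimates of 9 of the 10 were positive and their median was 0.37, against −0.00147 over all genes. Psat1 and Slc7a1 had estimates of 0.78 and 0.46 with no overlap between the groups' libraries, as 11.6% of all genes showed in the upward direction, but their adjusted p were 0.098 and 0.145. DESeq2's Wald test called both Pycr1 and Psat1 (adjusted p = 0.0128 for Psat1), where it called 3.76% of all genes. With limma voom none of the 10 passed, where 0.0841% of all genes did. Without SWAT_HFD replicate 2, or without any 1 of the 3 SWAT_SD replicates, edgeR called none of the 10, and 0 of all genes. Without SWAT_HFD replicate 1 it called none of the 10, and 0.349% of all genes.

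**Figure D2:**
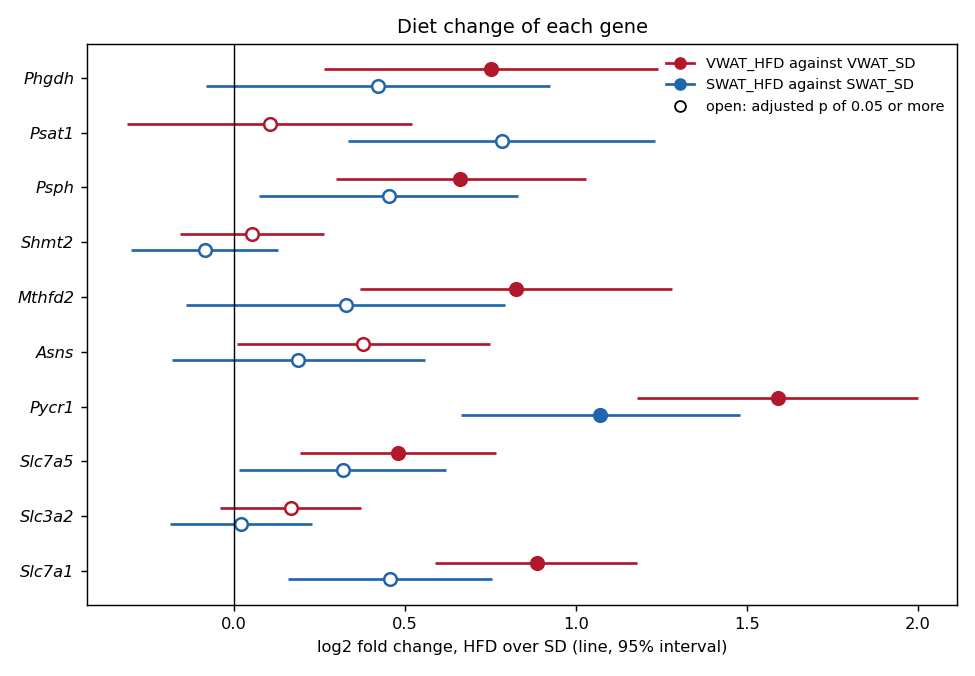
Estimated log2 fold change of HFD over SD for each gene in visceral (red) and subcutaneous (blue) precursors, with lines for the 95% interval, filled points for an adjusted p under 0.05 and open points for the rest. Estimates for Pycr1 are 1.59 and 1.07, and the intervals of Shmt2 and Slc3a2 cross 0 in both depots.

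Serine synthesis. Phgdh encodes the first enzyme of the pathway and sets its flux in many cells. It had 28.4, 32.1 and 16.3 CPM in VWAT_HFD, against 12.7, 15.1 and 17.8 CPM in VWAT_SD. Replicates 1 and 2 of VWAT_HFD were above every SD library, while replicate 3 fell within the SD range. The log2 fold change was 0.75 (SE 0.227, 95% interval 0.262 to 1.24, edgeR adjusted p = 0.0409), and without VWAT_HFD replicate 3 it was 0.99 (adjusted p = 0.00136). The call was lost without any 1 of VWAT_HFD replicates 1 and 2 (edgeR adjusted p = 0.122 and 0.202) or VWAT_SD replicates 1, 2 and 3 (0.134, 0.105 and 0.0627), and narrowly without SWAT_HFD replicate 1 or 3 or SWAT_SD replicate 1 (0.0502, 0.0508 and 0.0544). In all it was lost in 11 of 21 alternatives, the replicate block among them, and held in 10. In subcutaneous cells Phgdh had 17.5, 22.8 and 20.2 CPM in SWAT_HFD, against 14.4, 12.2 and 19.25 CPM in SWAT_SD, ranges that overlap (adjusted p = 0.431 by edgeR).

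Psph encodes the phosphatase of the last step, which releases serine. It had 11.3, 12.3 and 8.54 CPM in VWAT_HFD, against 6.39, 6.60 and 7.33 CPM in VWAT_SD, with every HFD library above every SD library. Its log2 fold change was 0.66 (SE 0.168, edgeR adjusted p = 0.0200). The call was lost without VWAT_HFD replicate 1 or 2 (0.0632 and 0.107, edgeR adjusted p) and without VWAT_SD replicate 1 or 2 (0.0686 and 0.066), and it held without VWAT_HFD replicate 3 (0.00254). In SWAT_HFD Psph had 8.96, 7.83 and 10.1 CPM, against 6.16, 5.435 and 8.34 CPM in SWAT_SD, where the ranges overlapped (edgeR adjusted p = 0.254). Across the 12 libraries Psph followed Phgdh more closely than any other pair of members followed each other (Pearson r = 0.903 of log2 CPM, a description over libraries that share their groups and depth).

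Psat1, the transaminase of the middle step, did not pass either diet test. It had 106.7, 103.5 and 114.3 CPM in VWAT_HFD, against 74.1, 104.0 and 123.9 CPM in VWAT_SD, so the HFD libraries lay inside the SD range (log2 fold change 0.10, 95% interval −0.314 to 0.521, edgeR adjusted p = 0.755). In SWAT_HFD it had 15.25, 17.1 and 25.8 CPM, against 11.1, 10.02 and 13.4 CPM in SWAT_SD. All SWAT_HFD libraries were above the SWAT_SD ones, by 1.72-fold in the fit (edgeR adjusted p = 0.098). Psat1 also set the depots apart. It was 5.505-fold higher in VWAT_HFD than in SWAT_HFD (edgeR adjusted p = 1.23e-06) and 8.82-fold higher in VWAT_SD than in SWAT_SD (adjusted p = 1.81e-07). Leaving out VWAT_HFD replicate 3 gave 5.33-fold on HFD, and leaving out SWAT_HFD replicate 2 gave 5.18-fold. The ratio of Psat1 to Phgdh counts was 3.22 to 7.03 in VWAT_HFD and 5.83 to 6.96 in VWAT_SD, against 0.752 to 1.28 in SWAT_HFD and 0.695 to 0.824 in SWAT_SD. Phgdh and Psph gave no such call: their depot estimates were 0.34 and 0.26 (log2) on HFD and 0.01 and 0.05 on SD, all with overlapping libraries.

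One-carbon enzymes. Mthfd2 encodes the mitochondrial dehydrogenase and cyclohydrolase of the folate cycle, an enzyme high in embryos and dividing cells. It had 18.5, 23.2 and 16.2 CPM in VWAT_HFD, against 9.23, 10.3 and 13.2 CPM in VWAT_SD, again with no overlap (log2 fold change 0.83, SE 0.212, edgeR adjusted p = 0.0208). The call was lost without VWAT_HFD replicate 2 (0.112, edgeR adjusted p), VWAT_SD replicate 1 (0.079) or VWAT_SD replicate 2 (0.0721). Shmt2, which splits serine into glycine and a one-carbon unit one step earlier, had 17.9, 18.9 and 16.7 CPM in VWAT_HFD and 16.3, 18.01 and 17.3 CPM in VWAT_SD (log2 fold change 0.05, 95% interval −0.159 to 0.263). The ratio of Mthfd2 to Shmt2 counts was therefore 0.972 to 1.23 in VWAT_HFD, against 0.566 to 0.762 in VWAT_SD. In subcutaneous cells neither passed. Mthfd2 had 11.4, 15.6 and 20.3 CPM in SWAT_HFD against 14.8, 9.895 and 13.6 CPM in SWAT_SD, and Shmt2 had 23.0, 20.8 and 24.2 CPM in SWAT_HFD against 21.6, 24.1 and 26.8 CPM in SWAT_SD. Shmt2 was lower in visceral cells, by −0.35 (log2) in VWAT_HFD against SWAT_HFD (edgeR adjusted p = 0.0195) and −0.48 in VWAT_SD against SWAT_SD (0.00224). The HFD call was lost without SWAT_HFD replicate 1 (0.0599) or 3 (0.0689), and both calls were lost with library size as the only scaling (log2 differences −0.07 and −0.27).

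Asparagine and proline. Pycr1 encodes the mitochondrial reductase of the last step to proline. It had 28.2, 32.5 and 18.5 CPM in VWAT_HFD, against 8.37, 8.23 and 9.73 CPM in VWAT_SD. In SWAT_HFD it had 38.5, 38.8 and 28.4 CPM, against 15.59, 15.55 and 19.25 CPM in SWAT_SD. No HFD library reached down to the SD range in either depot, and in both HFD groups replicate 3 was the lowest. The log2 fold change was 1.59 in visceral cells (SE 0.190, edgeR adjusted p = 0.000793; 1.79 without VWAT_HFD replicate 3) and 1.07 in subcutaneous cells (SE 0.188, adjusted p = 0.0245). The visceral call held in each of 21 alternatives. The subcutaneous one was lost with limma voom (0.0671), without SWAT_HFD replicate 1 (0.0651) or 2 (0.123), and without SWAT_SD replicate 1, 2 or 3 (0.138, 0.149 and 0.0632), with estimates of 0.99 to 1.17 in these fits. The related reductase gene Pycrl had 9.64 ± 0.905 CPM in VWAT_HFD and 9.002 ± 0.559 in VWAT_SD (SD, n = 3 each), and did not pass (log2 fold change 0.10).

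Asns, which makes asparagine from aspartate and glutamine, did not pass either diet test. It had 11.3, 11.6 and 9.57 CPM in VWAT_HFD against 7.585, 10.1 and 7.31 CPM in VWAT_SD (log2 fold change 0.38, 95% interval 0.00735 to 0.75, edgeR adjusted p = 0.151). In SWAT_HFD it had 14.1, 14.98 and 21.8 CPM, against 13.6, 16.8 and 14.7 CPM in SWAT_SD. Both genes were lower in visceral cells on SD, Pycr1 by −0.93 (log2; edgeR adjusted p = 0.00242) and Asns by −0.85 (0.00224), with every VWAT_SD library below every SWAT_SD library. On HFD Asns was lower by −0.66 (0.0114; lost without SWAT_HFD replicate 3, 0.0614, and when scaled by total count alone, 0.0911), while Pycr1 did not pass (−0.41, 0.122). Without VWAT_HFD replicate 2 Pycr1 passed there too (−0.59, 0.0453).

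Among the members, Pycr1 and Asns are those whose promoters hold the letters TGATGNAA, the core of the element that C/EBP and ATF factors bind in amino acid response genes. The windows searched were RefSeq promoters on GRCm38.p6, from 250 bases before to 50 bases after each gene's start, on both strands, and 9 of the 10 members had one (Slc7a5 had none in the table). The letters occurred in 3.97% of all 32851 windows, and the E-box CACGTG, searched likewise, occurred in none of the 9 and in 7.15% of windows. The 250 upstream bases of both genes are shown, 5′ to 3′ on the gene's strand with the match in capitals, beside those of Phgdh, which rose in visceral cells with no match in its window. In Pycr1 the first base of the match lies 103 bases before the start and in Asns 23. Positions are chr11:120643749-120643998 (Pycr1), chr6:7693210-7693459 (Asns) and chr3:98339970-98340219 (Phgdh), all on the minus strand.
Pycr1: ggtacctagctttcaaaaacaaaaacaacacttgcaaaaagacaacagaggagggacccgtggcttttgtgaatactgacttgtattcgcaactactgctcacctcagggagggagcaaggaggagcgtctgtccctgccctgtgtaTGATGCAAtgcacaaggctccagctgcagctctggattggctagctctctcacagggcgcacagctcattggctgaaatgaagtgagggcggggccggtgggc
Asns: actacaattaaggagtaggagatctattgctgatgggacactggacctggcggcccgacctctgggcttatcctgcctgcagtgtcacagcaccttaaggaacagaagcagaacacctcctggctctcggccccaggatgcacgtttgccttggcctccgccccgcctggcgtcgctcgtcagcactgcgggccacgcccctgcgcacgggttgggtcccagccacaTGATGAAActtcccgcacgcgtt
Phgdh: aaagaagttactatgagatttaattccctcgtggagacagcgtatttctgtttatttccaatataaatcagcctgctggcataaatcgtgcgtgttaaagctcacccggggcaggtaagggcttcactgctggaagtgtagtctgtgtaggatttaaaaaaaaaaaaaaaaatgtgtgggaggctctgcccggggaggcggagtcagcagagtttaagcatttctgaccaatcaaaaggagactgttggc
Pycr1 rose in both depots and Asns passed in neither, so the 2 genes with these letters did not share a diet call. A match of letters is a description of the window and shows no binding.

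Transporters. Slc7a1 encodes the main carrier for arginine, lysine and ornithine. It had 63.15, 81.4 and 62.8 CPM in VWAT_HFD, against 38.9, 41.7 and 31.6 CPM in VWAT_SD, so the lowest HFD library was well above the highest SD one. In SWAT_HFD it had 54.5, 61.95 and 60.2 CPM, against 46.1, 46.7 and 35.75 CPM in SWAT_SD, also without overlap. The log2 fold change was 0.89 in visceral cells (SE 0.138, edgeR adjusted p = 0.00167, past the test in each of 21 alternatives) and 0.46 in subcutaneous cells (SE 0.138, adjusted p = 0.145). Its relative Slc7a2, another cationic carrier, went the other way in visceral cells, at 13.0 ± 3.49 CPM in VWAT_HFD and 20.6 ± 3.26 in VWAT_SD (SD, n = 3 each), with ranges that just overlap. Its log2 fold change was −0.67 (edgeR adjusted p = 0.0313), and the call was lost in 5 of 21 alternatives, with adjusted p up to 0.153.

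Slc7a5 and Slc3a2 encode the light and heavy chains of the carrier that brings in leucine and other large neutral amino acids, and the heavy chain serves several other light chains. Slc7a5 had 15.4, 18.2 and 15.9 CPM in VWAT_HFD, against 10.9, 11.04 and 13.55 CPM in VWAT_SD, without overlap (log2 fold change 0.48, SE 0.133, edgeR adjusted p = 0.0287). The call was lost without VWAT_HFD replicate 2 (0.14), VWAT_SD replicate 1 (0.101) or VWAT_SD replicate 2 (0.103), and when libraries were scaled by total count alone (0.0888). Slc3a2 had 159.3, 177.5 and 147.1 CPM in VWAT_HFD and 134.3, 152.9 and 144.3 CPM in VWAT_SD, which overlap (log2 fold change 0.17, edgeR adjusted p = 0.252). In subcutaneous cells the estimates were 0.32 for Slc7a5 and 0.02 for Slc3a2, neither past the test, from 8.56, 10.3 and 12.4 CPM of Slc7a5 in SWAT_HFD against 7.98, 9.20 and 8.16 CPM in SWAT_SD, and from 131.0, 133.1 and 147.8 CPM of Slc3a2 in SWAT_HFD against 128.5, 143.8 and 134.1 CPM in SWAT_SD. Light-chain counts were thus 0.0969 to 0.108 of heavy-chain counts in VWAT_HFD, 0.0722 to 0.0939 in VWAT_SD, 0.0653 to 0.0836 in SWAT_HFD and 0.0609 to 0.064 in SWAT_SD. Slc7a5 was higher in visceral cells on both diets, 1.565-fold on HFD (edgeR adjusted p = 0.00300) and 1.399-fold on SD (0.0182). The SD call was lost without VWAT_SD replicate 3 (0.0895), SWAT_SD replicate 1 (0.0885) or SWAT_SD replicate 3 (0.0508).

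Whether the diet response differed between depots was tested as the interaction. None of the 10 passed with edgeR, DESeq2 or limma voom, edgeR called 0 of all genes and DESeq2 35, and 2 members had an unadjusted p under 0.05, as did 7.19% of all genes. The first was Psat1, whose response was smaller in visceral cells by −0.68 (log2; 95% interval −1.29 to −0.0657; edgeR adjusted p = 0.629). The other was Slc7a1, whose response was larger there by 0.43 (interval 0.00954 to 0.85; edgeR adjusted p = 0.681). For Pycr1 the difference was 0.52 (interval −0.0502 to 1.09). Calls in visceral cells alone therefore do not show a depot-specific response for Phgdh, Psph, Mthfd2, Slc7a1 or Slc7a5.

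The depot comparisons asked how visceral precursors differed from subcutaneous ones on each diet. On HFD, Psat1 and Slc7a5 were higher and Asns and Shmt2 lower in visceral cells, where 13.4% of all genes were higher and 13.4% lower, 26.8% in either direction. On SD, Psat1 and Slc7a5 were again higher, and Pycr1, Asns and Shmt2 lower, where 13.2% of all genes were higher and 12.5% lower, 25.7% in either direction. All these calls had no overlap between the depots' libraries, as 17.7% of all genes had upward and 18.2% downward on HFD, and 23.6% upward and 21.4% downward on SD. The members' median log2 differences were 0.24 on HFD and −0.10 on SD, against 0.02 over all genes in both. With library size as the only scaling these medians over all genes moved to 0.30 and 0.24, and 83.8% of all called genes were then higher on HFD against 50.1% with TMM, and 79.3% against 51.2% on SD. Under that scaling 6 members were higher and none lower on HFD, where 40.9% of all genes tested were higher and 7.88% lower. On SD 3 members were higher and 2 lower, where 30% of all genes were higher and 7.84% lower. Without VWAT_HFD replicate 3, Phgdh (0.58, edgeR adjusted p = 0.0271) and Slc3a2 (0.29, 0.0326) also passed as higher on HFD. Without SWAT_HFD replicate 3, Psat1 and Slc7a5 were the 2 that still passed there.

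**Figure D3:**
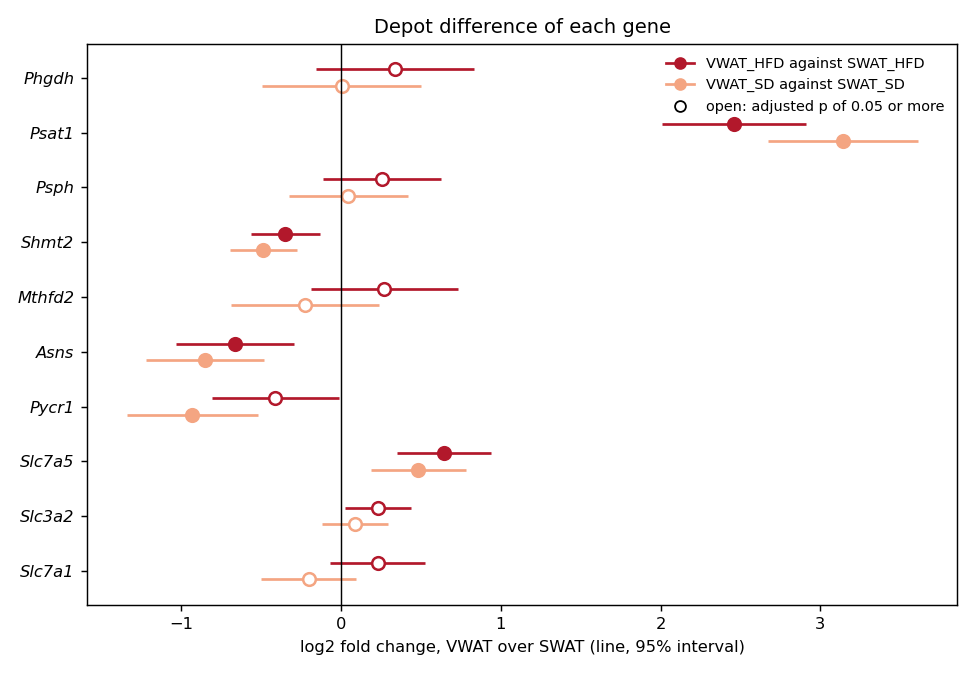
Estimated log2 fold change of visceral over subcutaneous precursors for each gene on HFD (dark red) and SD (light), with lines for the 95% interval and filled points for an adjusted p under 0.05. Psat1 stands apart at 2.46 and 3.14, while the other 9 genes lie between −0.93 and 0.65.

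Marker genes of other cells also differed by depot. The 6 mesothelial markers summed to 106 to 121.5 CPM in VWAT_HFD and 103 to 131 in VWAT_SD, against 2.41 to 4.83 in SWAT_HFD and 2.76 to 4.59 in SWAT_SD. Wt1, which visceral precursors are also known to express, made up most of this, while the defining marker Msln averaged 0.892 CPM in VWAT_HFD and 1.13 in VWAT_SD, against 0.0173 in SWAT_HFD and 0.00722 in SWAT_SD. The 6 mural markers summed to 113 to 148 CPM in visceral libraries, against 26.9 to 43.8 in subcutaneous ones, and the 4 Schwann markers to 6.20 to 11.5 against 31.0 to 36.1. The 5 adipocyte markers summed to 2.26 to 5.07 CPM in visceral libraries against 26.6 to 64.1 in subcutaneous ones, where Plin4 made up most of it. Of these lists, 1 or 2 mesothelial markers were at 0 in every subcutaneous library and none in any visceral one. On each diet 4 of the 6 mesothelial markers were higher and 1 lower in visceral cells, 3 of 6 mural markers were higher, and 3 of 4 Schwann markers and 1 adipocyte marker were lower. The mural marker Cspg4 was lower on SD (−1.08, log2). Of 8 leukocyte markers tested, Ptprc (−3.25), Csf1r (−2.00) and Cd14 (−1.24) were lower in visceral cells on HFD, and the endothelial marker Tek was lower on HFD (−0.56). Precursor markers differed as well: of 10, on HFD 6 were lower and 1 higher in visceral cells, and on SD 7 were lower. Among those lower on both diets were the sort markers Ly6a, which encodes Sca1 (−1.15 on HFD and −1.07 on SD), and Cd34 (−0.36 on each diet), with Cd24a, Dpp4, Pparg and Fabp4. The sort marker Itgb1, which encodes CD29, was the 1 that was higher on HFD (0.31), and it did not pass on SD. Of 20 cell division markers, 15 were higher in visceral cells on HFD (median 1.13, log2, all 20 positive), where 13.4% of all genes were higher. On SD 1 of the 20 was higher (median 0.619, 19 positive), where 13.2% of all genes were. The part of all these markers in the depot differences was not tested.

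Genes around the members were read from lists of the same pathways, whose counts stand beside the 8.64% of all genes that rose and the 6.98% that fell in visceral cells, and the 0.967% and 0.147% in subcutaneous cells. Of 21 further enzymes of serine, glycine and folate metabolism, 5 rose and 1 fell in visceral cells on HFD, with a median of 0.13 (log2). Aldh1l2, a mitochondrial folate dehydrogenase, had 11.4, 16.5 and 5.89 CPM in VWAT_HFD against 2.82, 3.03 and 2.97 CPM in VWAT_SD (log2 fold change 1.94). Tyms, which makes thymidylate (1.06), and Mthfd1l, a mitochondrial folate enzyme (0.76), were among the others that rose, while Cbs, which takes serine into cysteine synthesis, fell by 1.36. The visceral call of Mthfd1l was lost in 6 of 20 alternatives. In subcutaneous cells Aldh1l2 rose (1.503) and no other of the list passed, and this call was lost in 6 of 21 alternatives.

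Of 20 further enzymes of proline, glutamate, aspartate and arginine metabolism, 5 rose and 3 fell in visceral cells, with a median of 0.01. Aldh18a1, which makes the precursor that Pycr1 reduces, had 78.45, 84.8 and 65.7 CPM in VWAT_HFD against 44.35, 46.55 and 42.7 CPM in VWAT_SD (0.78). Prodh, which breaks proline down, fell by 1.57, at 0.862 ± 0.490 CPM in VWAT_HFD and 2.55 ± 0.985 in VWAT_SD (SD, n = 3 each). Bcat1 (1.54), Gpt2 (0.69), Odc1 (0.67) and Got1 (0.39) also rose, and Glul and Asl fell by 0.54 and 0.50. In subcutaneous cells Aldh18a1 (0.46) and Bcat1 (0.89) rose and none fell, and both calls were lost in 13 of 21 alternatives. The ratio of Pycr1 to Aldh18a1 counts was 0.281 to 0.383 in VWAT_HFD and 0.177 to 0.228 in VWAT_SD, against 0.364 to 0.491 in SWAT_HFD and 0.277 to 0.317 in SWAT_SD.

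Of 22 other amino acid transporters tested, 4 rose and 2 fell in visceral cells, with a median of −0.07. Slc38a4 (1.45), the serine and alanine carrier Slc1a4 (0.75), the small neutral carrier Slc38a2 (0.47) and Slc38a10 (0.39) rose, and Slc7a2 and Slc43a3 fell by 0.67 and 0.45. Slc38a4 had 14.56, 17.34 and 4.13 CPM in VWAT_HFD against 4.745, 3.597 and 4.873 CPM in VWAT_SD, so VWAT_HFD replicate 3 lay within the SD range. Its call was lost in 7 of 21 alternatives, that of Slc38a10 in 6, that of Slc38a2 in 2 and that of Slc1a4 in 0. In subcutaneous cells edgeR and limma voom called none, where they called 1.11% and 0.0841% of all genes. DESeq2 called 1, where it called 3.76% of all genes. Of 20 cytosolic aminoacyl-tRNA synthetases, Eprs (0.57), Gars (0.41), Tars (0.38) and Mars (0.26) rose in visceral cells and none fell. The call of Mars was lost in 10 of 21 alternatives, that of Gars in 6, that of Tars in 5 and that of Eprs in 0. In subcutaneous cells edgeR and limma voom called none of the synthetases and DESeq2 called 1, beside the same shares of all genes.

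Of 22 regulators and other targets of the amino acid response, 6 rose and 1 fell in visceral cells. Atf4 itself had 484.9, 459.5 and 385.5 CPM in VWAT_HFD against 328.3, 353.2 and 359.5 CPM in VWAT_SD (log2 fold change 0.35, edgeR adjusted p = 0.0348). This call was lost in 8 of 21 alternatives: by library size only (0.152, edgeR adjusted p), on only the libraries compared (0.0984), with the replicate block (0.0509), without VWAT_HFD replicate 1 or 2 (0.114 and 0.138) and without VWAT_SD replicate 1, 2 or 3 (0.115, 0.0869 and 0.0796). Sesn2, a leucine-sensing inhibitor of mTORC1, had 30.02, 34.7 and 19.3 CPM in VWAT_HFD against 11.0, 12.5 and 11.65 CPM in VWAT_SD (1.26, adjusted p = 0.000925). Ddit3 (0.60, lost in 4 of 21 alternatives), Eif2ak2 (0.48), which encodes a kinase other than GCN2, and the weakly counted Fgf21 and Chac1 rose too. Chac1 had 25, 31 and 2 counts in VWAT_HFD against 3, 3 and 1 in VWAT_SD, so replicate 3 lay within the SD range. Trib3, a target often used to read ATF4, had 6.20 ± 0.212 CPM in VWAT_HFD and 6.11 ± 0.920 in VWAT_SD (SD, n = 3 each; 0.02), Myc did not pass (−0.23), and Ddit4 fell by 0.87. In subcutaneous cells Eif2ak2 (0.46) was the 1 gene of the list that passed, and this call was lost in 8 of 21 alternatives.

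These lists lost and gained calls with single libraries. Without VWAT_HFD replicate 2, the numbers that rose in visceral cells were 3 of serine and folate, 3 of proline and related, 2 of transporters, 1 of synthetases and 2 of regulators. Without VWAT_HFD replicate 3 they were 6, 5, 4, 5 and 8, with 3, 4, 6, 0 and 4 that fell. Without VWAT_SD replicate 1 they were 3, 4, 1, 2 and 3, and without VWAT_SD replicate 2 they were 3, 4, 2, 1 and 3. The share of all genes that rose was 3.45% without VWAT_HFD replicate 2 and 14.9% without VWAT_HFD replicate 3, where 14.9% fell. It was 5.5% and 5.05% without VWAT_SD replicates 1 and 2. In either direction these 4 fits called 5.29%, 29.8%, 9.75% and 8.86% of all genes.

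**Figure D4:**
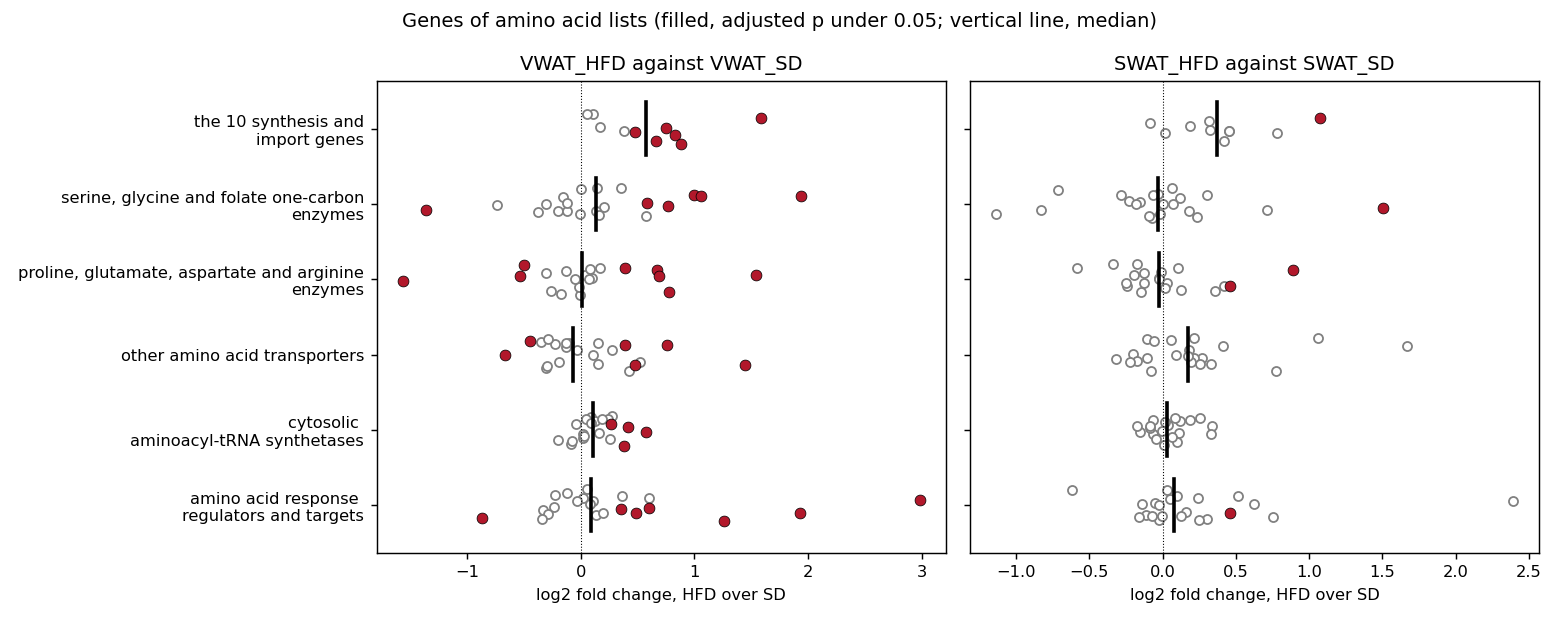
Estimated log2 fold change of HFD over SD for each gene of the members and of 5 related lists, in visceral (left) and subcutaneous (right) precursors. Filled points have an adjusted p under 0.05 and the vertical line is the median of the list, 0.57 and 0.37 for the members.

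Genes of cell division were also higher in the HFD libraries. All 20 markers rose in visceral cells on HFD, with a median of 3.09 (log2), Mki67 at 3.03 and Top2a at 3.18. In subcutaneous cells 16 of 20 rose, with a median of 2.60. Of all genes, 8.64% rose in visceral and 0.967% in subcutaneous cells. Without SWAT_HFD replicate 2, or without any 1 SWAT_SD replicate, edgeR called none of the 20 there, and 0 of all genes. Their medians in these fits were 2.37 to 2.70. With limma voom 1 of the 20 passed there, where 0.0841% of all genes did. Their summed level was 420.5, 664.9 and 168.3 CPM in VWAT_HFD against 55.8, 63.2 and 47.2 CPM in VWAT_SD. It was 152.8, 213.2 and 197.0 CPM in SWAT_HFD against 26.0, 37.6 and 41.6 CPM in SWAT_SD. VWAT_HFD replicate 3, lowest of its group for every member but Psat1 and Slc7a5, was also lowest of its group for this sum. In other groups the order of libraries differed: in SWAT_HFD the sum was highest in replicate 2 and the members' mean z-score in replicate 3, and VWAT_SD replicate 3 had the lowest sum of its group and the highest z-score. The mean z-score of the members was 0.746, 1.23 and 0.165 in VWAT_HFD, −0.899, −0.445 and −0.430 in VWAT_SD, −0.0596, 0.184 and 0.690 in SWAT_HFD and −0.530, −0.477 and −0.172 in SWAT_SD. The part of cell division in the diet differences of the members was not tested. Leukocyte markers summed to 7.14 to 10.4 CPM in VWAT_HFD and 11.0 to 17.6 in VWAT_SD. They summed to 12.7 to 45.1 CPM in SWAT_HFD and 11.6 to 14.1 in SWAT_SD. Of 7 endothelial markers, none passed a diet test or the interaction. Estimates of all 7 were positive in subcutaneous cells (median 0.992, log2) and of 5 in visceral cells (0.235). In the interaction 0 of 7 were positive (median −0.757). In visceral cells the leukocyte marker Cd14 fell by 0.87 (log2), the Schwann marker Mbp by 1.13 and the mural marker Myh11 by 1.42, while the mural markers Cspg4 (0.77) and Notch3 (0.73) and the precursor markers Thy1 (1.32) and Itgb1 (0.36) rose. Mural markers summed to 113 to 132 CPM in VWAT_HFD and 120 to 148 in VWAT_SD, and Schwann markers to 6.20 to 7.68 CPM in VWAT_HFD and 8.27 to 11.5 in VWAT_SD. The part of these markers in the diet differences was not tested.

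**Figure D5:**
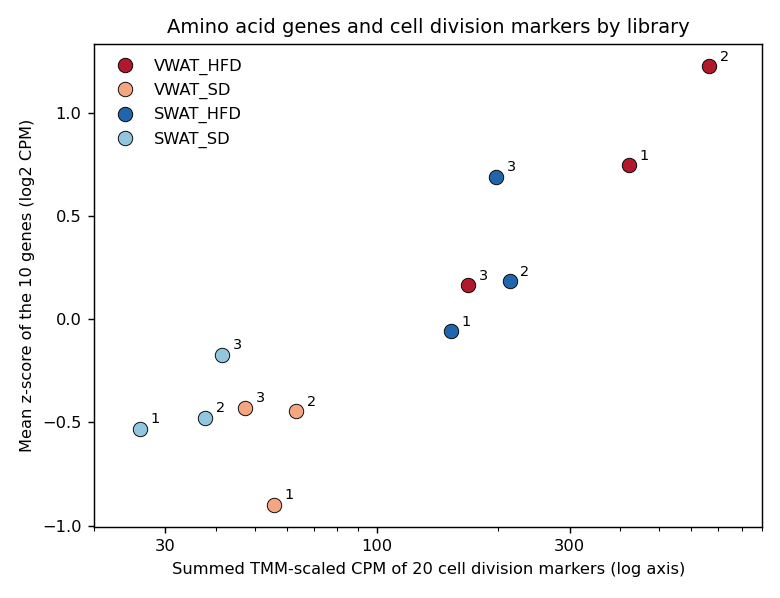
Mean z-score of the 10 genes' log2 CPM (vertical) against the summed CPM of 20 cell division markers (horizontal, log axis) in the 12 libraries, numbered by replicate. The HFD libraries lie at 152.8 to 664.9 CPM and the SD libraries at 26.0 to 63.2 CPM, and the z-score of every HFD library is above that of every SD library.

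Over the 12 libraries the genes outside the set that most resembled the mean of the members were Lsm12 (Pearson r = 0.978 of log2 CPM), Vim (0.977), Rrm2 (0.968), Gmnn (0.962) and Tmem123 (0.956). Rrm2 encodes a subunit of ribonucleotide reductase and Gmnn a regulator of DNA replication licensing, Vim the filament protein vimentin. Rrm2 had 9.20, 13.2 and 4.37 CPM in VWAT_HFD against 1.82, 2.645 and 2.33 CPM in VWAT_SD, and 3.48, 4.27 and 5.51 CPM in SWAT_HFD against 1.70, 2.035 and 2.38 CPM in SWAT_SD. Among the members the closest pairs after Phgdh and Psph were Shmt2 with Asns (0.862), Psat1 with Slc7a5 (0.839) and Slc7a5 with Slc3a2 (0.839), and Psat1 with Shmt2 ran opposite (−0.869). These correlations describe libraries that share depot, diet and depth.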

How the data were processed

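Gene expression was measured in 12 libraries of 75 bp reads from strand-marked poly(A) RNA. The authors deposited 1 table of raw read counts per gene, which per the submitters' processing notes came from TopHat and HTSeq on mm9; the versions, the annotation and the strand setting of the counting are not given in the sources used here, so overlapping genes are uncertain. The 3 entries that name no gene held 3.53 to 5.57% (no feature), 1.71 to 1.95% (ambiguous) and 14.98 to 20.81% (not unique) of each library and were left out. Genes passed filterByExpr by group (132 removed). One fit of 4 groups was tested with edgeR 4.0.16 in R 4.3.3 (quasi-likelihood F test, robust, TMM, Benjamini-Hochberg over all 14266 genes); "rose", "fell" and "passed" mean an adjusted p under 0.05. An exact test of 3 against 3 cannot go below 0.1 and was not used. The contrasts were HFD over SD in each depot, their difference, and VWAT over SWAT on each diet. log2 CPM used a prior count of 2. Lengths per kilobase are exon lengths of GENCODE vM21, not of the build counted, and promoters are RefSeq's on GRCm38.p6; no coordinates were taken from the count table.

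Replicates carry numbers with no statement of separate experiments, so p-values measure the spread between pooled libraries. Deviations of same-number VWAT_SD and SWAT_SD libraries correlated at 0.177 to 0.398 (every one of 3 over 0.1), by the data and not by a label. Unlike pairs of numbers 1 and 2 gave 0.0897 and 0.157, and unlike pairs with number 3 gave −0.298 to −0.197. Numbers 1 and 2 were thus hardly told apart. Of 3 same-number pairs, 2 were over 0.1 for diet in SWAT, 1 for depot on HFD and 0 for diet in VWAT. All pairs of replicates differed beyond sampling noise (chi-square per degree of freedom 7.62 to 193). The members and the gene lists were chosen with earlier results of these data known. Genes named are the members, up to 4 genes of lowest adjusted p per list and diet comparison, 8 preset genes, the 5 most similar genes and close homologues; the rest of the list genes that passed were named with their values known. A few genes of the lists are counted but not reported here by name. The alternatives tried were scaling by DESeq2 size factors or by library size, no filter, a mean CPM of at least 5, DESeq2 1.42.0, limma voom 3.58.1, only the libraries compared, a replicate block and leaving out libraries. Fits were tested on simulated data.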

Additional observations from a re-analysis of the deposited data

How the results depend on the processing

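Of the single-gene values recomputed under the alternatives, 1735 kept direction and side of the threshold, 191 lost a call, 11 gained one and 20 reversed. The number of genes passing moved as follows. For HFD against SD in visceral cells it was 2228, with 1246 on only the libraries compared, 4054 without both VWAT_HFD replicate 3 and SWAT_HFD replicate 2, and 757 to 4266 with each library left out; members passing were 2 to 6. In subcutaneous cells it was 159, with 263 by library size only, 54 at a mean CPM of at least 5, 536 with DESeq2, 12 with limma voom, 352 on only the libraries compared, 247 with the replicate block, 249 without both libraries and 0 to 615 with each left out; members passing were 2 with DESeq2, 0 with voom, 2 with the block and 0 to 1 with each left out. For the interaction it was 0, with 35 by DESeq2, 1 with the block, 46 without both libraries and 0 to 135 with each left out. For VWAT against SWAT on HFD it was 3830, with 6954 by library size only, 2487 at a mean CPM of at least 5 and 2852 to 4366 with each left out (members 2 to 6). On SD it was 3669, with 2347 at a mean CPM of at least 5 and 2865 to 4411 with each left out (members 4 to 5). The values that reversed were all of genes that had not passed. For Phgdh in VWAT_SD against SWAT_SD these were −0.0067 with DESeq2 size factors, −0.014 with DESeq2, −0.00083 with the replicate block, −0.0087 without both libraries and −0.14 to 0.19 with single libraries left out; for Psph there −0.082 to 0.22 with single libraries left out; for Slc7a1 there 0.019 by library size only. In visceral cells Psat1 gave −0.0054 by library size only and −0.076 to 0.28 with single libraries left out, and Shmt2 −0.059 by library size only. In subcutaneous cells Asns gave −0.045 to 0.29 with single libraries left out, and Slc3a2 −0.15 by library size only, −0.037 to 0.065 with single libraries left out. The cause was not tested. The highest same-number correlation was 0.0669 for diet in VWAT, 0.125 for diet in SWAT and 0.184 for depot on HFD. The replicate block gave 2279 genes in visceral cells, Phgdh was lost there (edgeR adjusted p = 0.0582), and Psat1 passed in subcutaneous cells (0.0354). In the SD depot comparison it gave 3663 genes and changed no call of the 10. Each group has 3 pooled libraries, and the members with the fewest counts have the widest counting error.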

Other observations

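Several genes of the related lists differed between depots by more than most members did. Slc7a2, a carrier of arginine and lysine, was 8.02-fold higher in VWAT_HFD than in SWAT_HFD (edgeR adjusted p = 5.82e-07) and 11.84-fold higher in VWAT_SD than in SWAT_SD (adjusted p = 9.24e-08), at 13.0 ± 3.49 CPM in VWAT_HFD against 1.61 ± 0.434 in SWAT_HFD, and 20.6 ± 3.26 CPM in VWAT_SD against 1.77 ± 0.254 in SWAT_SD (standard deviation, n = 3 each). Gpt2, an alanine transaminase, was higher in visceral cells by 1.67 (log2) on HFD and 1.34 on SD, and the mitochondrial folate enzyme Mthfd1l by 1.31 and 1.26. Aldh1l2, which rose on HFD in both depots, was lower in visceral cells by −2.00 on HFD and −2.44 on SD, and the secreted stress factor Gdf15 by −2.65 and −2.13. Marker genes of mesothelial, mural, Schwann and fat cells differed between depots too, and their part in these values was not tested.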
